A study of Mus musculus with 14 samples.

Results

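Cxcr4, Ackr3, Cxcl12, Kit and Kitl, a pair of receptors commonly used to sort endoderm together with a further receptor and the ligands they bind, were followed as 5 of the 24054 genes quantified in 14 mouse RNA sequencing libraries. The genes were taken by symbol, with no threshold on a measured value, although earlier results of these data were known. The libraries fall into 6 groups. The d0con and d0ko groups (2 libraries each) were undifferentiated embryonic stem cells (ESCs), sorted from red-fluorescent feeder fibroblasts as Cherry-negative cells. The d3con and d3ko groups (3 libraries each) were Venus-positive cells sorted after 3 days of differentiation with 12 ng/ml Activin A on feeders that secrete Wnt3a. In con cells 1 allele of Foxa2, a forkhead transcription factor of the endoderm, was replaced by the Venus reporter, and in ko cells both alleles were, so that the controls also lacked 1 copy. The d2-FVFn and d2-FVFp groups (2 libraries each) were Venus-negative and Venus-positive cells of another ESC line, homozygous for a Sox17-Cherry reporter, in which 40 ng/ml doxycycline for 48 h induced a Foxa2-Venus fusion in serum and LIF without feeders. Replicates 1 and 3 of each genotype came from 1 clone and replicate 2 from a different clone, so the 3 libraries of a day 3 group represent 2 clones, and p-values measure the spread between libraries.

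Cxcr4 is a G protein-coupled receptor for the chemokine Cxcl12, and this pair guides migrating cells, among them those of the early endoderm. Ackr3 (Cxcr7) also binds Cxcl12 but takes it up and degrades it rather than signalling through G proteins. Kit is the receptor tyrosine kinase for Kitl (stem cell factor), and Kit together with Cxcr4 on the cell surface is widely used to sort definitive endoderm in ESC cultures. Kit is also known from germ cells, blood progenitors and melanocytes.

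On GRCm38, which mm10 names, the RefSeq annotation places Cxcr4 at chr1:128588199-128592299 on the minus strand and Ackr3 at chr1:90203980-90215724 on the plus strand. Kit lies at chr5:75574987-75656722, Cxcl12 at chr6:117168535-117181368 and Kitl at chr10:100015615-100100416, all on the plus strand. All 5 are protein-coding, and their principal transcripts in GENCODE have 2 exons for Cxcr4 and Ackr3, 4 for Cxcl12, 10 for Kitl and 21 for Kit.

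The 250 bases before the start of the 3 receptor genes, read from RefSeq promoter windows of GRCm38.p6, are printed because these are the members with the most reads in differentiated cells. The windows are chr1:128592300-128592549 (minus strand) for Cxcr4, chr1:90203730-90203979 for Ackr3 and chr5:75574737-75574986 for Kit, each written 5′ to 3′ on the gene's own strand, and capitals mark TATAAA.
Cxcr4: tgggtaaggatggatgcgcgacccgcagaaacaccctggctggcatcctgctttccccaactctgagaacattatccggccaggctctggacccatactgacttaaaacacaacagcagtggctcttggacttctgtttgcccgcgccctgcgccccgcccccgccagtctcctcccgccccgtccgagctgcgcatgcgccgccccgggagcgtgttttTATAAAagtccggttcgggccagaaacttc
Ackr3: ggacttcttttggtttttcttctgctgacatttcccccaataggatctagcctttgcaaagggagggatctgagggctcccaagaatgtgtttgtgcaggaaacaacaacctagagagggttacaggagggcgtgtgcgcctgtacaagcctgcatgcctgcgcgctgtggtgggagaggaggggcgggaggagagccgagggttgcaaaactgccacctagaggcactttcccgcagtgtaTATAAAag
Kit: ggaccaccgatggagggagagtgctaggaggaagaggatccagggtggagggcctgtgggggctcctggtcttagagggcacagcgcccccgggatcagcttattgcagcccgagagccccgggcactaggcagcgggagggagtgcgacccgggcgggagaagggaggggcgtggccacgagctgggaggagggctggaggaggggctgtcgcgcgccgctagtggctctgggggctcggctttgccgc
TATAAA, searched on the gene's strand, began 30 bases before the start of Cxcr4 and 8 before that of Ackr3, and was found in 7.55% of 32536 windows of the same length. The letters TGTTTAC or TATTTAC, forms of the forkhead motif, were searched on both strands, and so were AGATAA or TGATAA, forms of the Gata motif. None of the 3 windows held either motif, against 5.75% and 16.5% of all windows. RefSeq holds 2 such windows for Kit, of which only the printed one is described. The Kit window had a GC content of 70.8% and that of Cxcr4 61.2%, with a median of 52.4% over all windows.

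Levels are given as TPM (the share of all transcripts that a gene accounts for, corrected for gene length), which can be set side by side between genes. To be called, a gene needed an adjusted p under 0.05 (edgeR's quasi-likelihood test with Benjamini-Hochberg adjustment over all genes tested) and a fold change over 2, given as log2 with its standard error (SE). Shares of all genes called count both directions. Genes called higher and lower numbered 2863 and 2027 in d3con over d0con, and 1613 and 795 in d3ko over d0ko. They numbered 660 and 488 in d3ko over d3con, and 901 and 190 in d2-FVFp over d2-FVFn. Libraries held 14142788 to 27278237 expected counts. Foxa2, the targeted gene, was at 34.8 to 58.6 TPM in d3con, 0.11 to 0.19 TPM in d3ko, 0.07 to 0.14 TPM at day 0, 2.01 and 2.99 TPM in d2-FVFn, and 160 and 169 TPM in d2-FVFp. The 6 endoderm markers, Sox17 and Cer1 among them, summed to 760 to 1280 TPM in d3con and 29.0 to 141 TPM in d3ko. They reached only 12.9 and 18.7 TPM in d2-FVFp. The d3ko libraries differed among themselves. The 6 pluripotency markers summed to 15400 and 17400 TPM in replicates 1 and 3, but to 2670 TPM in replicate 2. This sum was 13800 and 15600 TPM in d0con, 15300 and 15700 TPM in d0ko, and 562 to 985 TPM in d3con. Replicates 1 and 3 of d3ko thus reached the day 0 level of this sum. Most of each d3ko sum was Dppa5a, at 1866.5 to 15542.86 TPM. Zfp42 (40.05 to 400.05 TPM), Sox2 (14.74 to 89.32 TPM) and Klf4 (5.74 to 55.15 TPM) also ranged widely in d3ko. Pou5f1 (500.9 to 943.71 TPM) and Nanog (240.12 to 345.13 TPM) varied less. The 6 mesoderm markers were highest in d3ko replicate 2 (309 TPM). Read length was inferred from the gene lengths and effective lengths in the deposited quantification. By this the first replicates of both day 3 groups had 75-base reads and the remaining libraries 50-base reads. The study's methods give 50-base reads for all. Every pair of replicates differed by more than sampling noise, so none was the same library sequenced again. Each library was counted as its own sample, although replicates 1 and 3 of a day 3 group share a clone.

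In control cells 4 of the 5 members rose between day 0 and day 3, where 35.2% of the 13899 genes tested were called. Cxcr4 stood at 0.15 and 0.05 TPM in d0con, from 3 and 1 reads, and at 49.6, 28.0 and 52.8 TPM in d3con. No d3con library was near the day 0 level. The share of reads was 419 times higher in d3con, with a 95% exact interval of 164 to 1540 that covers counting error only. Its fitted log2 fold change was 8.46 (SE 1.19, adjusted p = 0.00069, edgeR), a value that rests on 4 reads at day 0.

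Kit and Ackr3 began from a clear level in ESCs, unlike Cxcr4. Kit was at 12.5 and 12.8 TPM in d0con and rose to 86.3, 77.7 and 142 TPM in d3con (log2 fold change 2.80, SE 0.34, adjusted p = 0.000411, edgeR). Ackr3 was at 12.8 and 10.5 TPM and rose to 64.3, 31.9 and 92.4 TPM (2.22, SE 0.48, adjusted p = 0.00466, edgeR). For both genes every d3con library lay above both d0con libraries, and d3con replicate 2 was the lowest of its group, as it also was for Cxcr4 and Kitl.

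Of the ligands, Kitl was at 1.10 and 1.47 TPM in d0con and rose to 16.9, 4.49 and 16.6 TPM in d3con (3.11, SE 0.78, adjusted p = 0.00945, edgeR). Without d0con replicate 1 or 2 this call was lost (2.91, adjusted p = 0.0758, and 3.34, adjusted p = 0.0547, edgeR). Cxcl12 was low on both days, with 0.41 and 0.74 TPM in d0con against 1.18, 1.05 and 1.36 TPM in d3con. The libraries did not overlap, but the difference did not pass (0.88, SE 0.51, adjusted p = 0.177, edgeR). The receptors were thus measured in d3con at means of 43.5 ± 13.5 TPM (Cxcr4), 62.9 ± 30.3 TPM (Ackr3) and 102 ± 34.7 TPM (Kit) (SD, n = 3), beside 1.20 ± 0.156 TPM for Cxcl12 and 12.7 ± 7.09 TPM for Kitl (SD, n = 3).

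**Figure D1:**
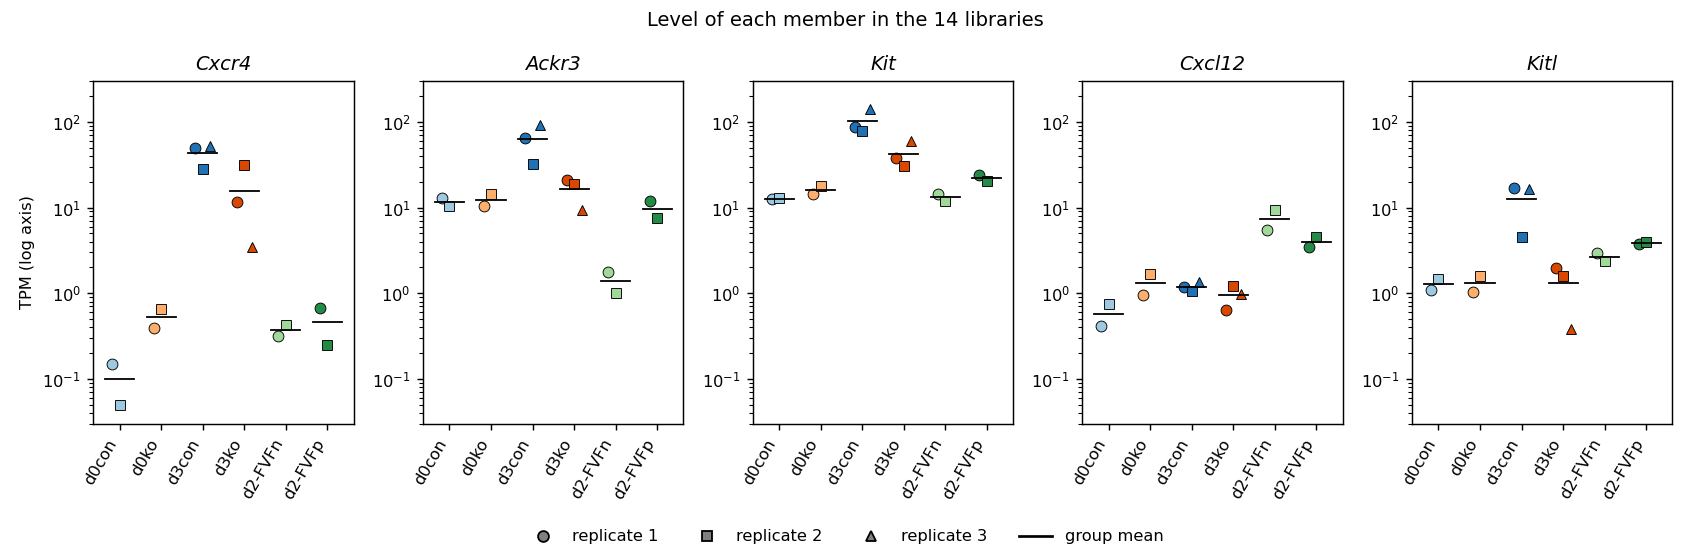
TPM (log axis) of each member in each of the 14 libraries, by group, with the marker shape giving the replicate and a line the group mean. Cxcr4 moves from 0.05 to 0.66 TPM at day 0 to 3.51 to 52.8 TPM at day 3, Kit is present in all groups, and Cxcl12 is highest in d2-FVFn (5.46 and 9.41 TPM).

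In knockout cells 2 of the 5 members rose between day 0 and day 3, where 17.3% of genes tested were called. Cxcr4 was at 0.39 and 0.66 TPM in d0ko and at 11.5, 31.7 and 3.51 TPM in d3ko. The d3ko libraries were far apart, but even the lowest lay above both d0ko libraries (4.70, SE 0.93, adjusted p = 0.00721, edgeR). The call was lost without d0ko replicate 1 (4.38, adjusted p = 0.0795, edgeR) or replicate 2 (5.08, adjusted p = 0.0544, edgeR).

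Kit was at 14.6 and 17.8 TPM in d0ko and at 37.4, 31.0 and 59.9 TPM in d3ko (1.24, SE 0.32, adjusted p = 0.0183, edgeR), with no overlap. Blocked by replicate number, the rise was 0.93 (adjusted p = 0.00982, edgeR), below 2-fold, and with the clone as a block, which also joins replicates 1 and 3, it was 1.15 (adjusted p = 0.0352, edgeR) and stayed called. It was also below 2-fold without d3ko replicate 3 (0.92, adjusted p = 0.0283, edgeR). The adjusted p missed the threshold without d0ko replicate 1 (1.12, adjusted p = 0.141, edgeR) or replicate 2 (1.37, adjusted p = 0.0824, edgeR).

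The other members did not pass in knockout cells. Ackr3 was at 10.4 and 14.4 TPM in d0ko and at 21.0, 18.9 and 9.46 TPM in d3ko (0.24, SE 0.44, adjusted p = 0.71, edgeR). Kitl was at 1.04 and 1.58 TPM in d0ko and at 1.95, 1.61 and 0.38 TPM in d3ko (-0.17, SE 0.70, adjusted p = 0.876, edgeR). Cxcl12 was at 0.96 and 1.67 TPM in d0ko and at 0.63, 1.23 and 0.98 TPM in d3ko (-0.67, SE 0.48, adjusted p = 0.314, edgeR). For all 3 the day 0 and day 3 libraries overlapped.

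Set against each other at day 3, 3 of the 5 members were lower in d3ko than in d3con, where 8.26% of genes tested were called. The largest difference was in the ligand Kitl, whose highest d3ko library (1.95 TPM) lay below the lowest d3con library (4.49 TPM), a 9.83-fold difference (log2 fold change -3.30, SE 0.67, adjusted p = 0.0198, edgeR). Ackr3 was 3.83-fold lower (-1.94, SE 0.40, adjusted p = 0.0211, edgeR), with d3ko at 9.46 to 21.0 TPM and d3con at 31.9 to 92.4 TPM. Kit was 2.37-fold lower (-1.24, SE 0.27, adjusted p = 0.0242, edgeR), with d3ko at 31.0 to 59.9 TPM and d3con at 77.7 to 142 TPM. In bulk samples fewer cells with a transcript and less transcript per cell cannot be told apart.

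Matched by replicate number, TPM of d3ko over d3con gave log2 ratios for Kit of -1.21, -1.33 and -1.24 for replicates 1, 2 and 3. Those of Ackr3 were -1.61, -0.76 and -3.29, and those of Kitl -3.12, -1.48 and -5.45. Same-numbered libraries of the 2 genotypes are different clones and were not taken as pairs. The evenness for Kit therefore depends on the numbering, as Kit ranged from 77.7 to 142 TPM in d3con and from 31.0 to 59.9 TPM in d3ko. The ratio of replicate 1 compares the libraries of 75-base reads with each other, and it had the sign of the others for all 3 genes. All 3 calls lay close to the threshold and were lost without d3con replicate 1 (adjusted p = 0.0684 to 0.0722, edgeR) or replicate 3 (0.0776 to 0.0927). That of Ackr3 was also lost without d3ko replicate 3 (adjusted p = 0.0579) and that of Kit without d3ko replicate 1 (adjusted p = 0.0803). The log2 fold changes in these fits were -1.90, -1.61 and -1.65 for Ackr3, -1.33, -0.98 and -1.17 for Kit, and -2.98 and -3.11 for Kitl. With the libraries of 1 clone and day summed, which leaves 2 clones a group, all 3 calls were lost (adjusted p = 0.110 to 0.124, edgeR) and 1 gene in all was called in place of 1148. Blocking by replicate number ended the call of Ackr3 (adjusted p = 0.0512), and blocking by clone those of Kit (0.0513) and Kitl (0.0522).

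Cxcr4 did not pass in this comparison (-1.51, SE 0.64, adjusted p = 0.159, edgeR), and its libraries overlapped. The overlap came from d3ko replicate 2, at 31.7 TPM above d3con replicate 2 at 28.0 TPM, whereas the other d3ko libraries, at 11.5 and 3.51 TPM, lay below all of d3con. Without d3ko replicate 2, which leaves 1 knockout clone at day 3, Cxcr4 was called lower in d3ko (-2.54, adjusted p = 0.00948, edgeR). Over all genes 1280 were then called higher and 969 lower, against 660 and 488 in the main fit. The library left out also held the most T (212 TPM), the brachyury gene of mesoderm and mesendoderm, against 13.7 and 55.7 TPM in the other d3ko libraries. Its Mesp1, a gene of early mesoderm, was at 64.8 TPM against 5.87 and 6.48 TPM. Its Cer1, a secreted inhibitor made by anterior endoderm, was at 56.4 TPM against 1.22 and 1.87 TPM, but Sox17 was at 1.25 TPM, between the others (0.76 and 2.10 TPM). The part of these differences in the Cxcr4 level was not tested. Cxcl12 was low in both genotypes and did not pass (-0.38, SE 0.44, adjusted p = 0.619, edgeR).

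**Figure D2:**
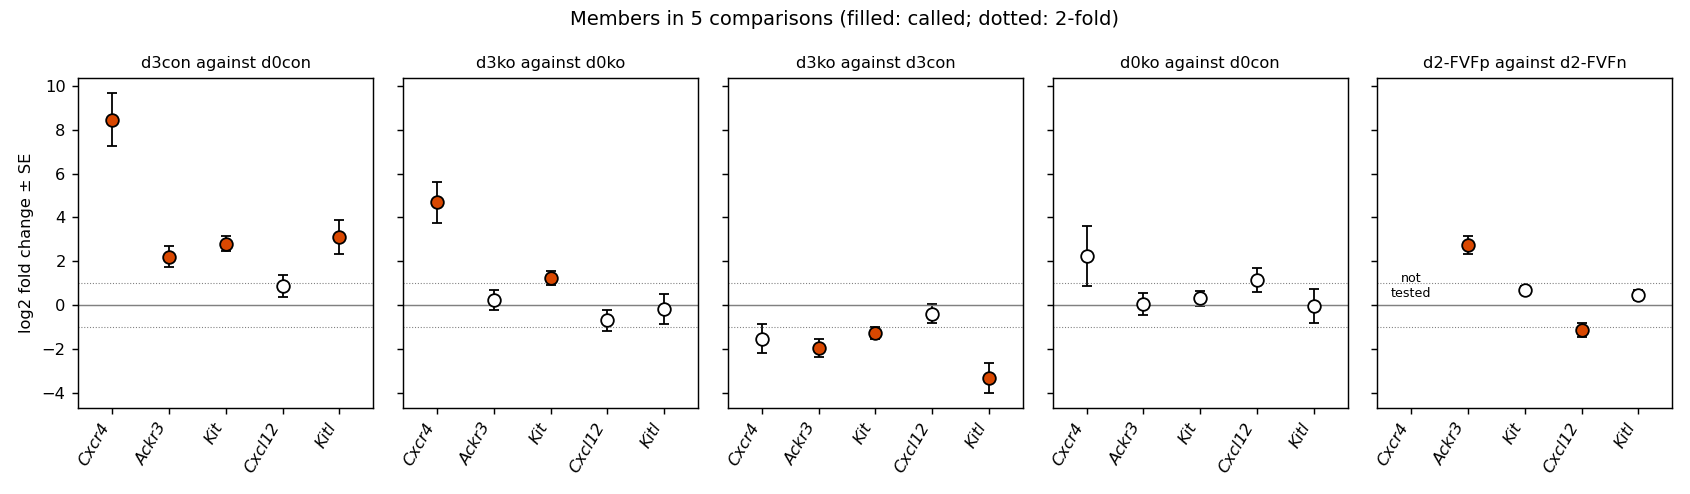
Log2 fold change with its SE for each member in 5 comparisons from edgeR, where filled points were called and dotted lines mark 2-fold. The day 3 rise is largest for Cxcr4 (8.46 in control and 4.70 in knockout cells), and Kitl has the largest fall between d3con and d3ko (-3.30).

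Whether the change between days differed by genotype was tested as an interaction, in which 0% of genes were called by edgeR. At an unadjusted p under 0.05 there were 1840 genes, DESeq2 called 299 higher and 266 lower, and limma called 0 higher and 12 lower on log2(TPM + 1). All 5 members had negative values, with Cxcr4 at -3.76 (SE 1.49, adjusted p = 0.321, edgeR), Kitl at -3.28 (SE 1.02, adjusted p = 0.23), Ackr3 at -1.99 (SE 0.63, adjusted p = 0.238), Kit at -1.56 (SE 0.43, adjusted p = 0.195) and Cxcl12 at -1.55 (SE 0.70, adjusted p = 0.387). DESeq2 called Kit (-1.56, adjusted p = 0.0237) and Kitl (-3.25, adjusted p = 0.0272) among its genes. Without d3ko replicate 2, which leaves 1 knockout clone at day 3, edgeR called Cxcr4 (-4.79, adjusted p = 0.0345, edgeR). Over all genes it then called 670 higher and 448 lower.

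In undifferentiated cells 0% of genes were called between d0ko and d0con by edgeR. At an unadjusted p under 0.05 there were 195 genes, DESeq2 called 0 higher and 1 lower, and limma called 0. All 5 members had an adjusted p of 1.0 (edgeR). Kit at 12.5 to 17.8 TPM and Ackr3 at 10.4 to 14.4 TPM were well measured in both genotypes, with log2 fold changes of 0.32 (SE 0.33) and 0.05 (SE 0.49). Cxcr4 had 25 reads in d0ko and 4 in d0con, a ratio of 5.02 with a 95% exact interval of 1.73 to 19.9 for counting error only, and the fit across libraries gave 2.25 (SE 1.37). Cxcl12 was at 1.17 (SE 0.55), with both d0ko libraries above both d0con libraries.

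In the doxycycline line Venus-positive cells, in which Foxa2 was forced, were compared with Venus-negative cells, both given doxycycline. There was no uninduced group, so effects of Foxa2 and of the sort cannot be told apart. Below, "with forced Foxa2" stands for this comparison. Of the 4 members with enough reads to test, 1 was called higher and 1 lower in d2-FVFp, where 8.43% of 12943 genes tested were called. Ackr3 was at 1.78 and 1.0 TPM in d2-FVFn and at 12.0 and 7.46 TPM in d2-FVFp, a 6.69-fold difference (2.74, SE 0.41, adjusted p = 0.0074, edgeR). In d0con and d0ko, of another line and culture, Ackr3 was at 10.4 to 14.4 TPM, so d2-FVFn was the low group. Cxcr4 stayed at 0.32 and 0.43 TPM in d2-FVFn and 0.67 and 0.25 TPM in d2-FVFp, with 13 reads in each group. That gave a ratio of 1.21 with a 95% exact interval of 0.516 to 2.83, so a difference was not detectable at this depth.

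Kit was at 14.6 and 11.8 TPM in d2-FVFn and 24.3 and 20.4 TPM in d2-FVFp. The difference passed the adjusted p but was 1.64-fold, under the 2-fold limit (0.72, SE 0.18, adjusted p = 0.0345, edgeR). Kitl, at 2.98 and 2.36 TPM against 3.77 and 3.91 TPM, did not pass (0.48, SE 0.24, adjusted p = 0.203, edgeR). Cxcl12 reached its highest level of all groups in d2-FVFn, at 5.46 and 9.41 TPM, and fell to 3.45 and 4.52 TPM in d2-FVFp (-1.14, SE 0.32, adjusted p = 0.0495, edgeR). The call was lost without any 1 of the 4 libraries: without d2-FVFn replicate 1 or 2 it was -1.45 (adjusted p = 0.0574) or -0.69 (0.325), and without d2-FVFp replicate 1 or 2 it was -1.0 (0.119) or -1.27 (0.0531).

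Over all 6 groups the order of mean levels differed by gene. Kit was highest in d3con, followed by d3ko, d2-FVFp, d0ko, d2-FVFn and d0con, and only d2-FVFn and d0con, next to each other at 13.2 and 12.6 TPM, had overlapping libraries. Ackr3 ran from d3con (62.9 TPM) down to d2-FVFn (1.39 TPM), while d3ko, d0ko, d0con and d2-FVFp, between 16.5 and 9.71 TPM, each overlapped with the next. Kitl was at 12.7 TPM in d3con, 3.84 TPM in d2-FVFp and 2.67 TPM in d2-FVFn, and the 3 other groups, at 1.29 to 1.31 TPM, overlapped. Cxcr4 was at 43.5 TPM in d3con and 15.6 TPM in d3ko, which overlapped, and at 0.10 to 0.525 TPM in the other groups, where only d0con lay apart from the next. Cxcl12 was highest in the doxycycline groups (7.44 and 3.98 TPM), and the other groups lay at 0.575 to 1.31 TPM, each overlapping with the next.

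Levels were also set against each other within each library. The Cxcr4 to Ackr3 ratio, as log2 of (TPM + 0.1), was -5.69 and -6.14 in d0con and -0.37, -0.19 and -0.81 in d3con, where the signalling receptor was near the level of the scavenging one. In d3ko it was -0.86, 0.74 and -1.41, where only replicate 2 held more Cxcr4 than Ackr3. The d3ko and d3con means of -0.51 and -0.46 differed by less than the spread (exact two-sided permutation p = 0.9, n = 3 each). In d2-FVFp it was -3.97 and -4.43, against -2.16 and -1.05 in d2-FVFn.

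Kit exceeded Kitl in every library. The log2 ratio was 2.34, 4.08 and 3.09 in d3con and 4.19, 4.18 and 6.97 in d3ko, so every d3ko library lay above every d3con library. The difference of 1.94 gave an exact two-sided permutation p = 0.1 (n = 3 each), the smallest that 3 against 3 libraries allow. With a pseudocount of 1 TPM it was 1.21 (exact permutation p = 0.3), where the libraries overlapped, and without d3ko replicate 3 it was 1.02. At day 0 the ratio lay between 3.03 and 3.69, and in the doxycycline groups between 2.25 and 2.66.

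**Figure D3:**
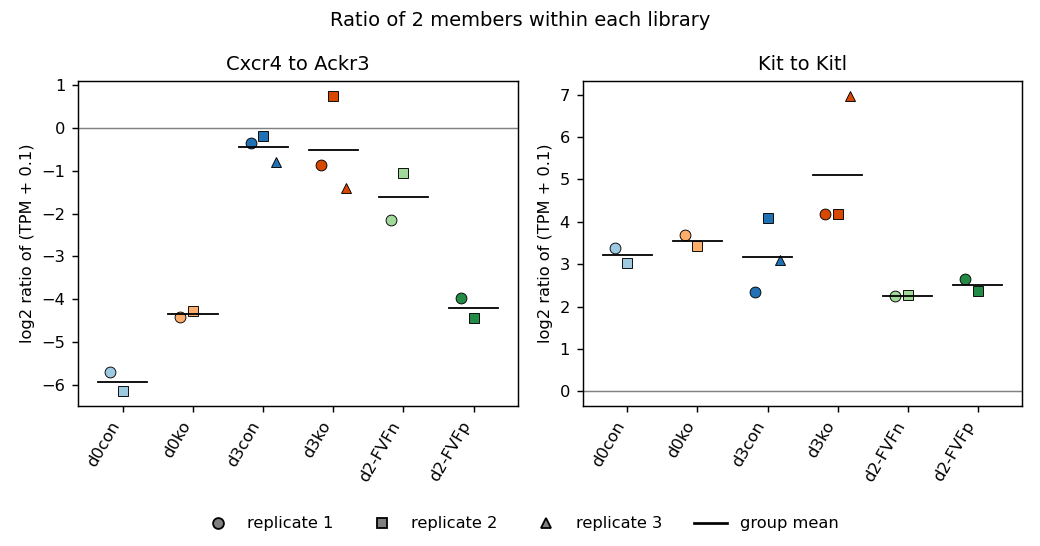
Log2 ratio of Cxcr4 to Ackr3 and of Kit to Kitl within each library, by group, computed on TPM + 0.1, with a line at each group mean. The 3 d3ko libraries have the highest Kit to Kitl ratios (4.18 to 6.97), and 1 of them is the only library with more Cxcr4 than Ackr3.

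Other cell types could be present in each sort, and their markers were measured in the same libraries. The 12 fibroblast markers, all listed in the files, summed to 13.9 and 15.8 TPM in d0con and 40.2 and 143 TPM in d0ko. Among the Venus-positive cells of day 3 they were at 62.2 to 314 TPM in d3con and 140 to 376 TPM in d3ko. In the doxycycline libraries, grown without feeders, they were at 4.52 to 6.76 TPM, and Cxcl12 was at its highest. Fap, one of the 12, was at 0 to 0.06 TPM in all 14 libraries. Within day 0, Cxcl12 was highest (1.67 TPM) in d0ko replicate 2, the library with most fibroblast markers. Within day 3 Cxcl12 was lowest (0.63 TPM) in d3ko replicate 1, with a sum of 306 TPM, and was at 1.05 TPM in d3con replicate 2, with the lowest sum (62.2 TPM). Kitl was lowest (0.38 TPM) in d3ko replicate 3, where the sum was highest (376 TPM), and in d3con it was lowest in replicate 2. The sum in d3ko replicate 3 was mostly Col1a1 (260 TPM). Dcn, another of the 12, was lowest of day 3 there (0.57 TPM) and highest in d0ko replicate 2 (17.4 TPM), so the markers did not order the libraries alike. The part of feeder RNA in the ligand levels was not tested.

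**Figure D4:**
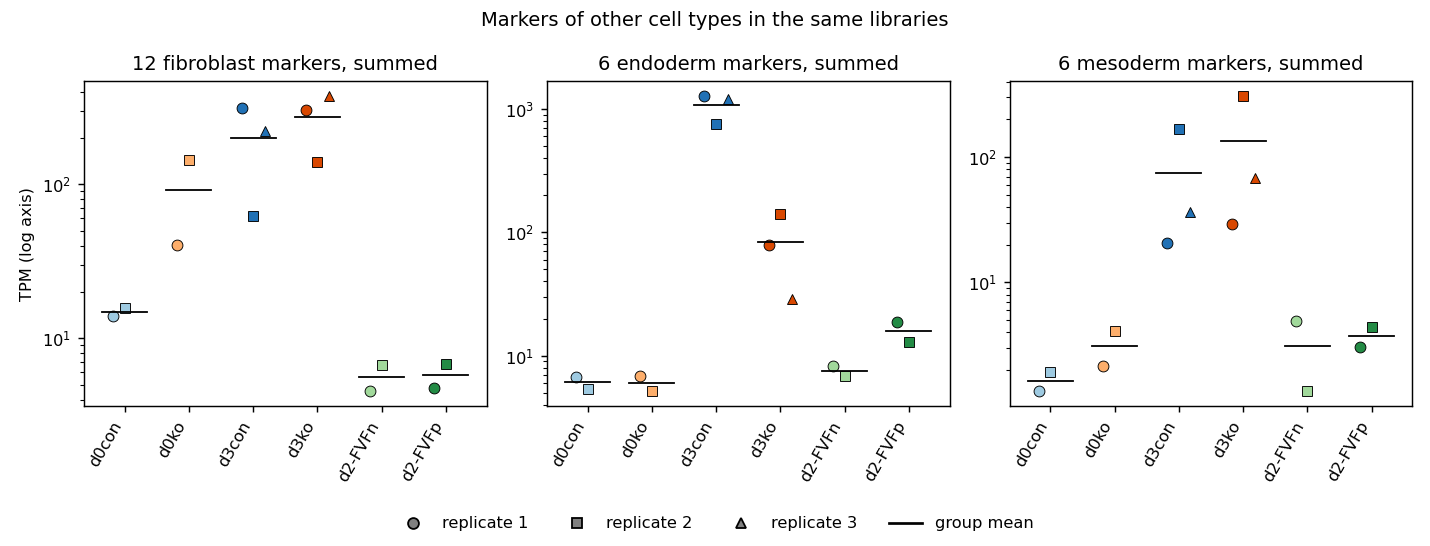
Summed TPM (log axis) of fibroblast, endoderm and mesoderm markers in each library, by group, with a line at each group mean. Endoderm markers separate d3con (760 to 1280 TPM) from d3ko (29.0 to 141 TPM), mesoderm markers peak in replicate 2 of both day 3 groups, and fibroblast markers are lowest in the doxycycline libraries.

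Markers of the other tissues that use Kit were looked at too. Of 8 germ cell markers, all tested, 6 were lower and 1 higher in d3con than in d0con. Their median log2 fold change was -3.35, beside 0.07 over all genes. All 8 were already present in ESCs, with d0con means from 4.08 TPM (Dazl) to 304 TPM (Dppa3). Between d3ko and d3con 4 of them were higher and 1 lower (median 2.25, beside 0.02). Over all genes 35.2% were called between d3con and d0con, and 8.26% between d3ko and d3con. Of 10 blood and endothelial markers, 8 were tested, and 4 were higher and 1 lower in d3con than in d0con (median 2.46). Between d3ko and d3con 1 was higher and 1 lower (median 1.37, beside 0.02). The higher was Pecam1, a surface protein of endothelium that ESCs also carry, at 45.2 ± 36.2 TPM in d3ko and 2.08 ± 0.924 TPM in d3con (SD, n = 3). The lower was Gata1, a transcription factor of red cell precursors, at 53.5 ± 26.9 TPM in d3con and 2.87 ± 2.15 TPM in d3ko (SD, n = 3), and the embryonic globin Hbb-bh1 was listed at 0 in both. Of 8 extraembryonic endoderm markers, 6 were tested, 4 of them higher in d3con than in d0con (median 2.93) and 2 lower in d3ko than in d3con (median -0.57). The part of these cell types in the Kit level was not tested.

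Apart from Cxcr4 and Ackr3, the chemokine receptors were almost silent. The other 21 listed summed to 0.53 to 7.91 TPM in any library, and 2, Ccr7 and Ackr4, passed the filter at day 0 and day 3. Both were higher in d3con than in d0con, none was called between d3ko and d3con, and Ackr4, an atypical receptor that also takes up chemokines, rose from 0.59 ± 0.184 TPM in d2-FVFn to 5.05 ± 2.94 TPM in d2-FVFp (SD, n = 2; 3.06, SE 0.56, adjusted p = 0.014, edgeR). Over all genes 35.2%, 8.26% and 8.43% were called in these comparisons, in that order.

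Of 34 other chemokine ligands 10 were tested at day 0 and day 3, and 3 (Cx3cl1, Ccl27a and Cxcl11) were higher and 3 (Cxcl5, Ccl2 and Ccl7) lower in d3con than in d0con (median -0.81, beside 0.07 over all genes). Over all genes 35.2% were called there, 17.3% in d3ko against d0ko and 8.26% in d3ko against d3con. Cx3cl1, the membrane-bound chemokine fractalkine, rose from 2.50 ± 0.474 TPM in d0con (SD, n = 2) to 68.6 ± 10.5 TPM in d3con (SD, n = 3; 4.57, SE 0.67, adjusted p = 0.000817, edgeR). It was the 1 ligand called between d3ko and d3con, at 19.2 ± 13.2 TPM in d3ko (SD, n = 3; -1.85, SE 0.49, adjusted p = 0.0439, edgeR). In knockout cells 1 rose and 4 fell over the 3 days. Among those that fell, Ccl2 and Ccl7, chemokines that attract monocytes, went from 22.1 ± 13.8 and 19.1 ± 13.4 TPM in d0ko (SD, n = 2) to 0.42 ± 0.651 and 0.217 ± 0.189 TPM in d3ko (SD, n = 3). The Ccl2 level at day 0 was highest in d0ko replicate 2 (31.8 TPM), which also had the most fibroblast markers of the day 0 libraries, and the part of these cells in it was not tested.

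With forced Foxa2, 4 of 7 ligands tested were higher in d2-FVFp and 0 lower (median 1.47, beside 0.01), where 8.43% of all genes were called. Cxcl10, an interferon-induced chemokine, was at 0.87 and 0.63 TPM in d2-FVFn and 17.9 and 42.9 TPM in d2-FVFp (5.29, SE 0.55, adjusted p = 0.00226, edgeR). Cxcl17 rose to 7.84 ± 4.77 TPM and Cxcl16 to 27.0 ± 16.6 TPM (SD, n = 2), from 0.305 ± 0.247 and 7.29 ± 1.05 TPM. At day 3 Cxcl10 was at 0.94 TPM or less in every library.

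Among 25 genes that act with Cxcr4, 22 were tested, of which 5 (Gnaq, Adrbk2, Rgs2, Rgs16 and Elmo1) were higher and 4 (Cd74, Sdc4, Arrb2 and Grk6) lower in d3con than in d0con (median 0.40, beside 0.07), where 35.2% of all genes were called. Elmo1, which with Dock proteins activates Rac in migrating cells, rose from 9.23 ± 0.438 TPM (SD, n = 2) to 55.4 ± 13.5 TPM (SD, n = 3; 2.38, SE 0.31, adjusted p = 0.000524, edgeR). It was at 9.60, 14.2 and 9.20 TPM in d3ko and was the 1 gene of the list called between d3ko and d3con (-2.33, SE 0.26, adjusted p = 0.00535, edgeR), where 8.26% of all genes were. Rgs16, which shortens G protein signals, rose to 42.6 ± 5.63 TPM in d3con (SD, n = 3) from 4.69 ± 1.12 TPM (SD, n = 2). In d3ko against d0ko Gnaq and Adrbk2 were higher and Sdc4 lower, where 17.3% of all genes were called. With forced Foxa2 2 were higher and 2 lower (median 0.00, beside 0.01), where 8.43% of all genes were called. Among the higher was Adrbk2, a receptor kinase also called Grk3, at 7.09 ± 1.0 TPM against 0.75 ± 0.311 TPM (SD, n = 2).

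Of 11 genes of the receptor tyrosine kinase family of Kit and their ligands, 7 were tested, with Pdgfra, Pdgfrb and Pdgfb higher and Pdgfc lower in d3con than in d0con (median 0.53), and Pdgfra and Pdgfrb higher and Pdgfc lower in d3ko than in d0ko (median 0.32). Over all genes 35.2% and 17.3% were called in these comparisons. Pdgfra, a PDGF receptor of mesendoderm, mesoderm and fibroblasts, rose from 0.17 ± 0.0566 TPM (SD, n = 2) to 17.5 ± 8.12 TPM in d3con (SD, n = 3; 6.43, SE 1.28, adjusted p = 0.00319, edgeR) and was at 20.3 ± 24.2 TPM in d3ko. None of this family was called between d3ko and d3con (median 0.47, beside 0.02), where 8.26% of all genes were. A difference from Kit was not tested. With forced Foxa2 3 (Pdgfra, Pdgfa and Csf1) were higher and 0 lower, where 8.43% of all genes were called. Pdgfa, a PDGF ligand, was at 50.7 ± 11.4 TPM against 22.2 ± 2.44 TPM (SD, n = 2).

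All 29 listed genes acting downstream of Kit were tested, with 4 higher and 3 lower in d3con than in d0con (median 0.20) and 6 higher and 2 lower in d3ko than in d0ko (median 0.44), beside 35.2% and 17.3% of all genes called. The adaptor Gab1 fell from 326 ± 18.0 TPM (SD, n = 2) to 46.2 ± 8.52 TPM in d3con (SD, n = 3; -3.03, SE 0.52, adjusted p = 0.00164, edgeR). The transcription factor Stat5b rose in both genotypes, to 14.2 ± 1.84 TPM in d3con and 9.96 ± 3.44 TPM in d3ko (SD, n = 3), from 2.03 ± 0.17 and 2.08 ± 0.0212 TPM (SD, n = 2). It also rose with forced Foxa2 (1.23, SE 0.28, adjusted p = 0.0256, edgeR), where 4 of the list were higher and 1 lower (median 0.26, beside 0.01), beside 8.43% of all genes called. Between d3ko and d3con 1, the transcription factor Mitf, was higher and 0 lower (median 0.19), beside 8.26% of all genes.

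Of 6 other surface proteins of endoderm or epithelium, 5 were tested, with 3 higher in d3con than in d0con (median 2.08) and 2 lower in d3ko than in d3con (median -0.93). Over all genes 35.2% and 8.26% were called in these comparisons, with medians of 0.07 and 0.02. Cd24a was at 639, 375 and 703 TPM in d3con and 82.7, 204 and 49.4 TPM in d3ko (-2.37, SE 0.49, adjusted p = 0.0208, edgeR). The tight junction protein Cldn6 was at 732, 353 and 690 TPM against 61.0, 73.2 and 118 TPM (-2.82, SE 0.34, adjusted p = 0.00713, edgeR). In both genes the groups did not overlap. Prom1 rose over the 3 days in both genotypes, to 26.1 ± 14.5 TPM in d3con and 26.3 ± 13.1 TPM in d3ko (SD, n = 3). With forced Foxa2 0 of the 5 were called (median 0.32), where 8.43% of all genes were.

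The genes whose pattern over the 14 libraries was most like that of each member were ranked by Pearson r of log2(TPM + 1) among 11100 genes with a mean of at least 5 TPM in any group. The libraries share cell lines and days, so r is a description. For Cxcr4 they were Lhx1os (0.988), Map3k1 (0.988), Gsc (0.987), Dapk2 (0.986) and Lhx1 (0.984). Lhx1 and Gsc encode homeodomain transcription factors of the organizer and mesendoderm, and Lhx1os lies beside Lhx1 on the opposite strand, so that reads of the pair may not be separable. Ranked by Spearman instead, Lhx1 was at rank 10, Lhx1os at 135 and Gsc at 2285. For Kit they were Fam213a (0.975), Pskh1 (0.972), Paip1 (0.965), Rnf215 (0.964) and Clcn3 (0.963). For Ackr3 they were Lefty2 (0.944), a Nodal inhibitor that ranked 714 by Spearman, with Fbrs and Ebp (both 0.935). For Kitl they were Stk32a (0.962), Vav3 (0.952) and Proc (0.949). For Cxcl12 they were Eif5a2 (0.952), Jakmip2 (0.951) and Kctd12b (0.949). Between members, Cxcr4 and Kit were most alike (0.89), and Cxcl12 had negative values with Cxcr4 (-0.36), Ackr3 (-0.67) and Kit (-0.33). These values pool different cell lines. Cxcl12 was at 3.45 to 9.41 TPM in the doxycycline libraries and at 0.41 to 1.67 TPM in all others. The r within the day 0 and day 3 libraries alone was not computed, so the sign may differ there.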

How the data were processed

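Per the labels and the study's methods, the authors aligned the reads to mm10 with STAR and quantified genes per library with RSEM, whose versions are not given in the sources used here. The deposited expected counts are RSEM's read estimates for each gene without depth scaling, and the deposited TPM values are scaled by the authors for gene length and library total. Expected counts were rounded, and genes with at least 1 CPM in at least 2 libraries were tested with edgeR 4.0.16 (R 4.3.3, TMM, quasi-likelihood F test, Benjamini-Hochberg) over all 10 day 0 and day 3 libraries together and over the 4 doxycycline libraries alone. DESeq2, which the study used for its pairwise tests, was run here as an alternative (DESeq2 1.42.0, limma 3.58.1). The fit was tested on simulated data. Groups and replicate numbers come from the sample titles.

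Across days, same-numbered libraries of a genotype share a clone per the study's methods, although their deviations from the group means correlated little (-0.0396 to 0.0627). The values reported come from fits without a block, and the blocked value stands beside a day 3 against day 0 result whose call it changes. Genes named from lists were at most 3 per list and comparison, with the largest fold change among called genes whose libraries did not overlap and whose mean was at least 5 TPM. Fap, Hbb-bh1, Dcn, Pou5f1, Nanog, Dazl and genes named only to spell out a small count were chosen after their values were seen. So were the library values given for T, Mesp1, Cer1, Sox17, Cxcl10, Ccl2, Col1a1 and Dcn. Members and lists were chosen with earlier results of these data known. Of the Cxcr4 partners, 23 of 25 symbols were in the files, with Grk2 and Grk3 under Adrbk1 and Adrbk2. Of 24054 symbols, 22542 matched RefSeq. Intervals are exact conditional binomial intervals and cover counting error only.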

Additional observations from a re-analysis of the deposited data

How the results depend on the processing

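Of 478 values of members under alternatives, 422 kept their direction and their side of the threshold, 39 lost a call, 9 gained one and 8 changed sign. The rises of Cxcr4, Ackr3 and Kit in d3con over d0con and that of Ackr3 in d2-FVFp kept theirs in every alternative run. For d3ko against d3con the calls of Ackr3, Kit and Kitl were lost with only the 2 groups fitted (-1.93, -1.25, -3.29), with libraries of 1 clone and day summed (-1.80, -1.25, -3.09), with glmTreat against a 2-fold change (-1.94, -1.24, -3.30) and without both day 3 replicate 1 libraries (-2.13, -1.26, -3.42), the latter pair chosen after seeing the data. The replicate block ended that of Ackr3 (-1.91) and the Kit rise in d3ko (0.93), and the replicate block by clone those of Kit (-1.24) and Kitl (-2.91). The numbers of d3con and d3ko are different clones (correlations 0.54, 0.294 and -0.0139), and no source used here says what a number shares in the 2 doxycycline pairs (0.288), so neither was taken as paired. There the block gave -1.11 for Cxcl12 (adjusted p = 0.000135, edgeR). The block changed no other call. glmTreat also ended the Kit rise in d3ko (1.24) and the Cxcl12 fall in d2-FVFp (-1.14), which limma on log2 TPM lost as well (-0.73 with a pseudocount of 1, -0.84 with 0.1). Without both day 3 replicate 2 libraries, also chosen after seeing the data, each day 3 group held 1 clone. Cxcr4 was then called lower in d3ko (-2.79), and the interaction passed for Cxcr4 (-5.04), Ackr3 (-2.42), Kit (-1.54) and Kitl (-3.88). DESeq2 called the interaction for Kit (-1.56) and Kitl (-3.25). Kitl in d0ko against d0con turned to 0.01 with limma. With a pseudocount of 1 the Cxcr4 to Ackr3 difference turned to 0.01.

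With each library left out in turn, values ranged from 2.82 to 3.53 for Kitl in d3con over d0con, and in d3ko over d0ko from 3.67 to 5.18 for Cxcr4, 0.92 to 1.44 for Kit and -0.61 to 0.29 for Kitl. In d3ko over d3con they ranged from -2.54 to -1.03 for Cxcr4, -2.26 to -1.61 for Ackr3, -1.56 to -0.98 for Kit and -3.74 to -2.84 for Kitl. Those of the Cxcr4 interaction ranged from -4.79 to -3.27, of Cxcl12 in d2-FVFp from -1.45 to -0.69, and in d0ko over d0con from -0.18 to 0.25 for Ackr3 and -0.32 to 0.24 for Kitl. The Cxcr4 to Ackr3 difference ranged from -0.68 to 0.39. All genes called between d3ko and d3con numbered 660 higher and 488 lower, 7 and 60 with only these groups fitted, 0 and 1 with clones summed, 0 and 1 without both replicate 1 libraries, 1521 and 1051 without both replicate 2 libraries, 317 and 360 with the block by clone, 154 and 130 with glmTreat, and from 9 and 71 (without d3con replicate 3) to 1280 and 969 (without d3ko replicate 2) with 1 library left out. In d3ko over d0ko they numbered 1613 and 795, 868 and 477 with only these groups, 346 and 138 with glmTreat, and as few as 344 and 323 (without d0ko replicate 1). glmTreat called 1553 and 1040 in d3con over d0con, against 2863 and 2027, and 275 and 21 in d2-FVFp, against 901 and 190, where leaving out 1 library gave as few as 489 and 73. The interaction gave 942 and 686 without both replicate 2 libraries and 670 and 448 without d3ko replicate 2. Ranked by Spearman, 7 of the 19 genes named as most like a member stayed within the first 10, and the others moved to ranks 27 to 2285. The Kit to Kitl difference ranged from 1.02 to 2.41 with 1 library left out. The causes were not tested.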
